A study of Homo sapiens with 6 samples.

Results

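The genes of the BCL2 family, the caspases and their regulators were followed in PC-3 cells that overexpressed BHLHE22. The 36 genes were chosen by name, as known members of these families, and all 36 were found among the 58302 genes of the deposited table. A low-count filter left 34 of them among 15945 genes tested. The cells were PC-3, an established human prostate cancer line. One group received a Bhlhe22-overexpression lentivirus and the control group a blank-vector lentivirus, with 3 libraries in each. BHLHE22 is a basic helix-loop-helix transcription factor. The sources used here name neither the promoter of the lentivirus nor the use of a clone or a pool of cells. Nor is it stated that each library was grown as its own culture, and the p-values then cover library-to-library spread that may be technical.

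Cells die by apoptosis along 2 routes that meet at the caspases, the proteases that take the cell apart. In the mitochondrial route, BH3-only proteins sense damage and block pro-survival BCL2 proteins, which frees BAX and BAK1 to form pores in the mitochondrial outer membrane. Cytochrome c then leaves the mitochondrion and builds, with APAF1, the apoptosome that activates CASP9. In the receptor route, death receptors gather FADD and CASP8, and CFLAR competes with CASP8 in that complex. When CASP8 is inactive, RIPK1, RIPK3 and MLKL can drive necroptosis, a lytic death, while CASP1 and CASP4 are known for pyroptosis. BCL2L1 and MCL1 are known survival proteins of prostate cancer cells.

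The libraries held 12186723 to 15949537 counts each. BHLHE22 had 1 read in each vector library and 92 to 133 in the BHLHE22 libraries. The epithelial markers KRT8, KRT18, KRT19, EPCAM and CDH1 were present in both groups, at 24.4 to 803 CPM (read counts scaled to library size) in vector cells. The prostate markers KLK3 and KLK2 had 0 and 4 counts over the 6 libraries, while TMPRSS2 averaged 161 CPM in the vector and 68.5 CPM in the other group. The mean CPM of VIM, listed with the epithelial markers, was 789 for vector and 1164 for BHLHE22 libraries. Of 6 blood cell markers, TYROBP, HBB and CD3E had 0 counts, PTPRC had 3 and LYZ 13. CD79A had 105 counts, 75 of them from vector libraries. This list summed to 23 to 31 counts in vector and 10 to 15 in BHLHE22 libraries. Markers of other cell types were mixed. COL1A1 (fibroblasts and muscle) had 4833 counts over the 6 libraries and PECAM1 (endothelium) 3342. The other genes of those lists had 2 to 174. Each library is a bulk sample, so less RNA per cell and fewer cells with that RNA cannot be told apart.

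A rise was called for 14 of the 34 tested members and a fall for 4, while 16 missed the threshold of an adjusted p under 0.05 (edgeR's quasi-likelihood test, Benjamini-Hochberg adjustment). Over all tested genes 49.4% were called, 25.1% higher and 24.3% lower, against 52.9% of the tested members, 41.2% higher and 11.8% lower. The share of members called was thus close to that of all genes, and the members' calls lay more on the higher side. The median log2 fold change of the tested members was 0.315 and that of all tested genes 0.00376. The values of the groups did not overlap for 18 members (52.9%), against 60.5% of all tested genes. A change of at least 2-fold was called for 7 members that rose and 2 that fell, beside 1302 rises (8.17%) and 1300 falls (8.15%) of that size over all tested genes. Unscaled library sizes raised the median log2 fold change of all genes by 0.146 and gave 15 rises and 2 falls, so each change below is relative to the typical gene. The count of falls was also 2 without vector replicate 1, vector replicate 2 or BHLHE22 replicate 2.

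Split by function, both sides of the pathway held rises. Of 9 pro-survival members, 4 rose (BCL2A1, BCL2, BIRC3 and MCL1), 1 fell (CFLAR) and 4 did not pass, with a median log2 fold change of 0.286. That is 44.4% higher and 11.1% lower, against 25.1% and 24.3% of all tested genes. Of 25 pro-death members, 23 were tested. Among these 9 rose (39.1%), 2 fell (8.7%, BMF and BBC3) and 12 did not pass, with a median of 0.344. The rises on the pro-death side were those of 5 caspase genes, CYCS, FADD, MLKL and BOK. TRADD and RIPK1, which signal to survival as well as death, were put on neither side, and the first rose while the second fell. The 2 medians are given as descriptions and their difference was not tested.

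**Figure D1:**
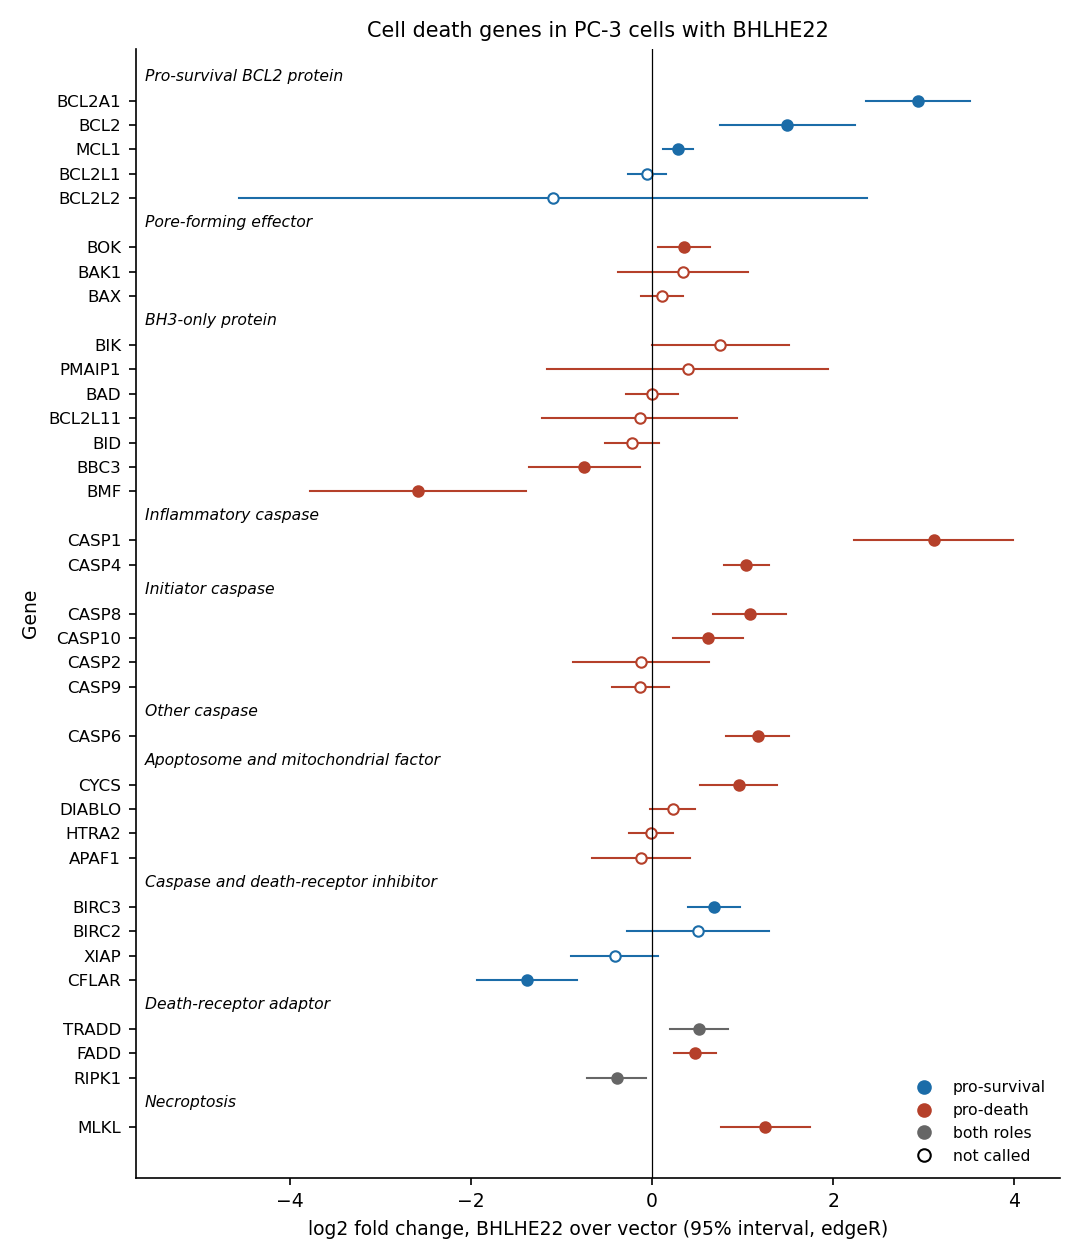
Log2 fold change (x axis, BHLHE22 over vector) of the 34 tested genes, grouped by role (y axis), with 95% intervals from the edgeR fit of 3 libraries per group. Filled points passed the adjusted p under 0.05, open points did not, and colour marks the side of the pathway. CASP1 and BCL2A1 stand farthest to the right at 3.11 and 2.93, and BMF and CFLAR farthest to the left among the filled points at -2.58 and -1.38.

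The promoters of 4 called members are shown because they hold a match to a motif of interferon or NF-kappaB signalling, pathways known to act on cell death genes. RefSeq windows (GRCh38.p14), from 250 bases before to 50 after a start that RefSeq gives, were found for 29 of the 36 members, some with several starts, 52 windows in all. The interferon-response core was searched as GAAA, any 2 bases, GAAA, on both strands. It occurred in 3.57% of all 35116 windows and in 5 of the 52, those of BCL2A1, CASP8, RIPK1 and BBC3. RIPK1 gave 2 of these, overlapping windows that hold the same match. The window of BBC3, also called, has overlapping matches on the forward strand and is not printed. A motif of NF-kappaB type, GGG, any 2 bases, TTTCC, occurred in 1.91% of all windows and in 1 member's window, that of BIRC3. Capitals mark the match, which lies on the reverse strand in all 4 sequences, printed 5′ to 3′ along the gene.
BCL2A1, chr15:79971147-79971446, minus strand: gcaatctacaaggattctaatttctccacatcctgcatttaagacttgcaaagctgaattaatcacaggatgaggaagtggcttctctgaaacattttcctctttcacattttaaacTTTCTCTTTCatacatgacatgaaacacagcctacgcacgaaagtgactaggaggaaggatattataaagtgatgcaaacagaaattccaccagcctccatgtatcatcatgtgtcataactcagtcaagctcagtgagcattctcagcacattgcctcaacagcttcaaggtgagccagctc
CASP8, chr2:201233213-201233512, plus strand, 1 of 3 windows: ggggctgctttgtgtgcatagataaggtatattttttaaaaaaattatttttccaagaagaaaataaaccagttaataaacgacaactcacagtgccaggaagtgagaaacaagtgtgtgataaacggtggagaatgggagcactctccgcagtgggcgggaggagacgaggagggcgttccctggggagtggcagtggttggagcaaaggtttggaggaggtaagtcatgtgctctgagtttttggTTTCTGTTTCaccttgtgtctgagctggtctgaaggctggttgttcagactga
BIRC3, chr11:102317234-102317533, plus strand: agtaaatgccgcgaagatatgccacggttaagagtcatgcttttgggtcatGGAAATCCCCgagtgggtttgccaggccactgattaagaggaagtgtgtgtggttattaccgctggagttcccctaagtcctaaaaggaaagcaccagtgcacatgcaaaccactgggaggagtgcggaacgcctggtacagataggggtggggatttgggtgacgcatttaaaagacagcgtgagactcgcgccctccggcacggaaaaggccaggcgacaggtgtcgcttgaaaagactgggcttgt
RIPK1, chr6:3068128-3068427, plus strand, 1 of 3 windows: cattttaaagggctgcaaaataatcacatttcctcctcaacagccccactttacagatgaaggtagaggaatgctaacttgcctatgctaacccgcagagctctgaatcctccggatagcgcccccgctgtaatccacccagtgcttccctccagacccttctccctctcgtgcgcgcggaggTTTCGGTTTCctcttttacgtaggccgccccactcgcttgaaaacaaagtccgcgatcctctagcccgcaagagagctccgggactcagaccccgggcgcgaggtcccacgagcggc

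Counted from the RefSeq start, the match lay at -133 to -124 in BCL2A1, at -3 to 7 in CASP8, at -199 to -190 in BIRC3 and at -67 to -58 in RIPK1, with the start as 1 and no position 0. These starts differ from those of the deposited table, whose gene coordinates are given with each member, and lie downstream of them by 250 bases in BCL2A1, 20 in CASP8, 34 in BIRC3 and 4387 in RIPK1. Counted from the table's start, the match lay inside the gene in BCL2A1 (118 to 127), CASP8 (18 to 27) and RIPK1 (4321 to 4330), and before it in BIRC3 (-165 to -156). BCL2A1, CASP8 and BIRC3 rose, whereas RIPK1 and BBC3 fell, so members with a match moved in both directions. The E-box CANNTG, the general site of basic helix-loop-helix factors, was in 68.7% of all windows and in 34 of the 52. Its form CATATG was in 3.04% of all windows and, among the members, in a window of DIABLO, which was not called. A match is a description of the letters and shows no binding.

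Among the pro-survival BCL2 proteins, BCL2A1 changed most. BCL2A1 (ENSG00000140379, chromosome 15, 79960889 to 79971446, GRCh38) encodes a short-lived BCL2 relative that is a known NF-kappaB target. It had 3.78, 2.31 and 4.93 CPM in vector replicates 1 to 3, against 25.2, 30.1 and 28.8 CPM with BHLHE22. The lowest BHLHE22 library was far above the highest vector library. The rise was 7.63-fold (log2 fold change 2.93, SE 0.25, adjusted p = 0.000175, edgeR).

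BCL2 (ENSG00000171791, chromosome 18, 63123346 to 63320128), the founding member of the family, was scarce. It had 7, 6 and 9 counts in the vector libraries and 25, 18 and 21 in the BHLHE22 libraries. No BHLHE22 library came down to the vector range. It rose 2.82-fold (log2 fold change 1.49, SE 0.32, adjusted p = 0.00670, edgeR). MCL1 (ENSG00000143384, chromosome 1, 150574551 to 150579738), a short-lived protein that restrains BAK1, had 243, 248 and 256 CPM against 290, 314 and 307. The groups of MCL1 stood apart by little, a 1.22-fold rise (log2 fold change 0.29, SE 0.07, adjusted p = 0.0118, edgeR). The adjusted p of MCL1 was 0.0567 without BHLHE22 replicate 2 and 0.296 when tested against a 1.2-fold change.

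BCL2L1 (ENSG00000171552, chromosome 20, 31664452 to 31723989), the gene of BCL-XL, was the most abundant member by the authors' FPKM, a length-normalized level. It had 433, 453 and 372 CPM in vector and 402, 419 and 392 CPM in BHLHE22 libraries. The groups of BCL2L1 overlapped, and the 95% interval of its log2 fold change ran from -0.26 to 0.16 around -0.05 (adjusted p = 0.650, edgeR). The ends of that interval are a 1.11-fold rise and a fall to 0.833 of the vector level. With unscaled library sizes the log2 fold change of BCL2L1 was 0.09 (adjusted p = 0.365, edgeR).

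BCL2L2 (ENSG00000129473, chromosome 14, 23298790 to 23311759), the gene of BCL-W, varied too widely between libraries to be compared. It received 772, 86 and 792 counts in vector replicates 1 to 3, against 651, 55 and 31 counts with BHLHE22. High and low libraries occurred in both groups, with a ratio of the highest to the lowest CPM of 9.98 among vector and 27.3 among BHLHE22 libraries. Of 11865 tested genes with a mean of at least 5 CPM, 29 (0.244%) spread more than 5-fold within both groups. The interval of the log2 fold change of BCL2L2 ran from -4.56 to 2.37 around -1.10 (adjusted p = 0.551, edgeR). BCL2L2-PABPN1, a readthrough gene on the same strand that shares 813 exonic bases (19.4% of the exon length of BCL2L2), had 157, 146 and 107 counts in vector and 173, 164 and 253 in BHLHE22 libraries. The part of read assignment between these overlapping genes in the spread was not tested.

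Levels of different genes can be compared only per length, so the authors' FPKM was used, divided by each library's scaling factor. The gene length that this FPKM implies exceeded the merged exon length of GENCODE release 29 for BCL2L1 and MCL1, but matched it for BOK. Shares, sums and ratios across genes thus depend on the authors' lengths, which may not be comparable between genes. BCL2L1 made up 61.4, 69.3 and 56.8% of the summed FPKM of the 5 pro-survival BCL2 genes in the vector libraries and 51.4, 54.2 and 53.5% in the BHLHE22 libraries. MCL1 held 27.6 ± 1.8% and 29.6 ± 1.8% (SD, n = 3). The share of BCL2A1 was 2.05, 1.35 and 2.88% against 12.3, 14.9 and 15.1%, and the lowest BHLHE22 share was above the highest vector share. The sum without BCL2L2 was 88.8, 91.4 and 82.2 in vector and 101, 108 and 103 in BHLHE22 libraries. These sums describe mRNA and were not tested.

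**Figure D2:**
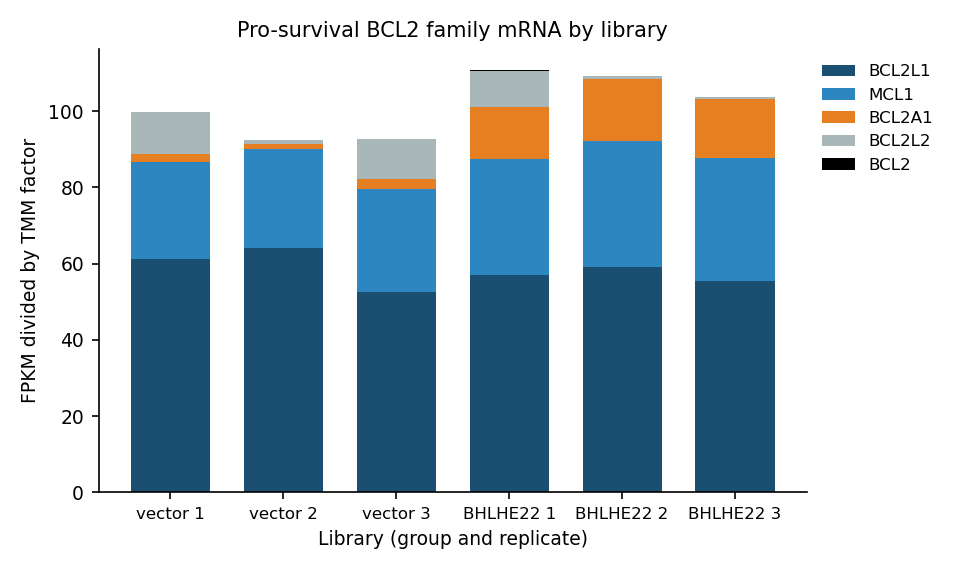
Stacked bars give the FPKM of the 5 pro-survival BCL2 genes (y axis, divided by the library's TMM factor) in each of the 6 libraries (x axis). BCL2A1 takes 1.35 to 2.88% of the bar in vector and 12.3 to 15.1% in BHLHE22 libraries, and BCL2L2 is tall in 3 libraries only, vector replicates 1 and 3 and BHLHE22 replicate 1.

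The effectors BAX and BAK1, which form the mitochondrial pore, did not pass the test. BAX had 26.8, 24.0 and 24.8 CPM in vector and 28.5, 26.3 and 26.6 CPM in BHLHE22 libraries (log2 fold change 0.11, 95% interval -0.13 to 0.34, adjusted p = 0.411, edgeR). BAK1 had 70.8, 32.9 and 71.6 CPM against 81.55, 74.3 and 66.5, with vector replicate 2 alone at a low level (log2 fold change 0.34, adjusted p = 0.376, edgeR). BOK, a BAX relative that is known to act largely without the control of pro-survival proteins, had 28.9, 24.5 and 25.8 CPM against 29.2, 35.4 and 36.4. BOK passed the test narrowly (log2 fold change 0.35, SE 0.12, adjusted p = 0.0474, edgeR), and its call ended without any 1 of 5 of the 6 libraries, all but BHLHE22 replicate 1 (adjusted p = 0.0538 to 0.134).

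The ratio of the summed FPKM of pro-survival BCL2 genes to that of BAX, BAK1 and BOK was 2.98, 4.29 and 2.88 in vector replicates 1 to 3, against 3.02, 2.98 and 2.95 with BHLHE22. The groups overlapped in this ratio. Vector replicate 2, the library with little BAK1, had the highest value. The ratio depends on the authors' gene lengths and was not tested.

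The BH3-only genes, whose proteins start the mitochondrial route, held 0 rises and 2 falls among 7 tested members (edgeR). The falls were 28.6% of them, near the 24.3% of all tested genes called lower, and 25.1% of all tested genes were called higher. At an unadjusted p under 0.05, with DESeq2 and with limma-voom the count of rises was also 0. BMF (ENSG00000104081, chromosome 15, 40087890 to 40108892), known as a sensor of lost attachment, fell most of all members. It had 41.6, 35.8 and 31.7 CPM in vector and 7.57, 8.75 and 2.04 CPM in BHLHE22 libraries. Every BHLHE22 library lay below every vector library, a 5.998-fold fall (log2 fold change -2.58, SE 0.49, adjusted p = 0.00671, edgeR). BBC3, which encodes PUMA, a known p53 target, was low, with 44, 48 and 33 counts against 30, 19 and 27. Its log2 fold change was -0.75 (SE 0.26, adjusted p = 0.0466, edgeR), but vector replicate 3 and BHLHE22 replicate 1 were at the same level, 2.32 and 2.34 CPM. The call of BBC3 ended with DESeq2 (adjusted p = 0.1003), with unscaled library sizes (0.0889), without vector replicate 1 (0.133) or 2 (0.124), and without BHLHE22 replicate 2 (0.150) or 3 (0.126).

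The other BH3-only genes were not called. PMAIP1, the gene of NOXA, which binds MCL1, ranged widely, with 34.4, 111 and 88.3 CPM in vector and 183, 55.5 and 68.8 CPM in BHLHE22 libraries. Its interval ran from a log2 fold change of -1.16 to 1.94, which includes a 2-fold fall as well as a 2-fold rise. BCL2L11, which encodes BIM, a binder of all pro-survival BCL2 proteins, had 26.0, 18.6 and 10.7 CPM against 8.58, 21.9 and 19.6. BCL2L11 shares 727 exonic bases with MIR4435-2HG on the other strand, and whether the counting used strand is not stated, so their reads may be mixed. BID, the link from CASP8 to the mitochondrion, had 20.6 ± 1.9 and 17.7 ± 1.9 CPM (log2 fold change -0.22, adjusted p = 0.193, edgeR). BAD, whose protein is held in check by survival kinases, had 48.2 ± 5.6 and 48.2 ± 5.5 CPM (95% interval of the log2 fold change -0.29 to 0.29), and shares 404 exonic bases with GPR137 on the other strand. BIK had 2.95, 1.43 and 3.803 CPM against 5.46, 4.09 and 4.26. The groups of BIK did not overlap (log2 fold change 0.75, adjusted p = 0.0915, edgeR), and the adjusted p was 0.0365 without vector replicate 3. HRK was under the filter, with 3 counts over the vector and 5 over the BHLHE22 libraries.

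**Figure D3:**
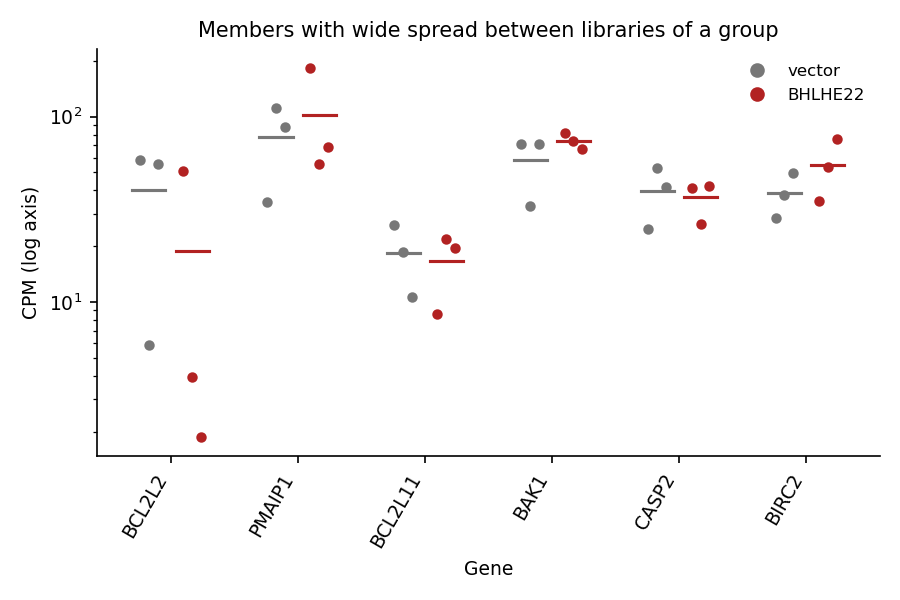
CPM on a log axis (y) of 6 members (x) in which libraries of 1 group lay far apart, with a point per library and a line at the mean of 3. BCL2L2 spans 1.86 to 58.4 CPM, and for PMAIP1 the lowest library is vector replicate 1 and the highest BHLHE22 replicate 1.

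Past the mitochondrion, CYCS rose while the other factors did not pass. CYCS, which encodes cytochrome c of the respiratory chain and of the apoptosome, had 68.9, 90.0 and 114 CPM in vector and 165, 169 and 196 CPM in BHLHE22 libraries. The groups of CYCS were separate, with a 1.94-fold rise (log2 fold change 0.95, SE 0.18, adjusted p = 0.00429, edgeR). The table also lists 40 CYCS pseudogenes, near copies with 219 counts in all against 11578 of CYCS, so some of its reads may be split. APAF1, the scaffold of the apoptosome, had 47.1, 56.3 and 32.7 CPM against 48.7, 44.0 and 32.2 (adjusted p = 0.677, edgeR). DIABLO and HTRA2, mitochondrial proteins that displace inhibitors from caspases, had log2 fold changes of 0.23 and -0.02 (adjusted p = 0.114 and 0.913, edgeR). With unscaled library sizes DIABLO passed at 0.37 (adjusted p = 0.0296). HTRA2 shares 483 exonic bases with AUP1 on the other strand, a gene with 8914 counts.

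Of the 7 caspase genes, 5 rose and 0 fell (edgeR), and 0 fell at an unadjusted p under 0.05, with DESeq2 or with limma-voom. The rises were 71.4% of these genes, against 25.1% of all tested genes, of which 24.3% were called lower. CASP1 (ENSG00000137752, chromosome 11, 105025443 to 105035250), the inflammasome protease that matures interleukin-1 beta, had the largest log2 fold change of the members. It had 6, 3 and 3 counts in the vector libraries and 33, 26 and 52 in the BHLHE22 libraries. All BHLHE22 libraries were above all vector libraries, an 8.63-fold rise from a very low level (log2 fold change 3.11, SE 0.38, adjusted p = 0.000623, edgeR). CASP1 shares much of its sequence with the neighbouring CARD16, which had 10 against 57 counts, so reads of the 2 genes may be mixed. CASP4 (ENSG00000196954, chromosome 11, 104942866 to 104969436), a sensor of bacterial lipopolysaccharide, lies 56006 bases from CASP1. It had 14.6, 17.1 and 16.1 CPM in vector and 33.6, 31.4 and 33.4 CPM in BHLHE22 libraries, a tight 2.06-fold rise (log2 fold change 1.04, SE 0.11, adjusted p = 0.000358, edgeR).

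CASP6, a caspase that cleaves lamins, had 3.78, 4.56 and 4.30 CPM in vector and 8.43, 9.76 and 10.1 CPM in BHLHE22 libraries. The groups of CASP6 did not overlap, with a 2.24-fold rise (log2 fold change 1.16, SE 0.15, adjusted p = 0.000770, edgeR). CASP6 shares 105 exonic bases (5.40% of its exon length) with MCUB on the other strand, so some reads may be mixed. MCUB had 162, 140 and 216 counts in vector and 250, 285 and 311 in BHLHE22 libraries. The part of such reads in the rise of CASP6 was not tested. The initiators of the 2 routes differed in their calls. CASP8 and CASP10, which act at death receptors, rose, whereas CASP9 of the apoptosome and CASP2 did not pass. CASP9 had 16.3, 13.1 and 16.97 CPM against 13.6, 14.7 and 14.1 (log2 fold change -0.13, 95% interval -0.44 to 0.18, adjusted p = 0.456, edgeR). CASP2 had 24.7, 53.1 and 41.8 CPM against 41.4, 26.5 and 42.3, with the groups fully overlapping (adjusted p = 0.778, edgeR). The difference between the changes of CASP8 and CASP9 was not tested.

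CFLAR, CASP10 and CASP8 lie side by side on chromosome 2, on the plus strand, with 6193 bases between CFLAR and CASP10 and 4036 between CASP10 and CASP8. CFLAR (ENSG00000003402, 201116104 to 201176687) encodes FLIP, which lacks protease activity and competes with CASP8. It had 85.2, 98.3 and 80.2 CPM in vector and 28.0, 47.0 and 26.2 CPM in BHLHE22 libraries. The groups of CFLAR were wide apart, a 2.61-fold fall (log2 fold change -1.38, SE 0.23, adjusted p = 0.00303, edgeR). CASP8 (ENSG00000064012, 201233443 to 201287711), the main initiator at death receptors, had 21.6, 17.5 and 23.5 CPM against 44.7, 35.2 and 52.3. The groups of CASP8 did not overlap, and the rise was 2.11-fold (log2 fold change 1.08, SE 0.17, adjusted p = 0.00201, edgeR). CASP10 had 3.63, 3.60 and 3.87 CPM against 5.70, 4.88 and 6.48 (log2 fold change 0.62, adjusted p = 0.0166, edgeR). Its adjusted p was 0.0522 without vector replicate 1 and 0.0540 without BHLHE22 replicate 3.

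The FPKM ratio of CASP8 to CFLAR was 0.632, 0.442 and 0.730 in vector replicates 1 to 3, against 3.97, 1.86 and 4.96 with BHLHE22. The deposited FPKM of CFLAR was thus above that of CASP8 in each vector library and below it in each BHLHE22 library. That order depends on the gene length behind each FPKM. For CFLAR the implied length exceeded even its merged exon length, so which mRNA was more abundant cannot be told from this order. In CPM, which ignores length, CFLAR was above CASP8 in each vector library and also in BHLHE22 replicate 2 (47.0 against 35.2 CPM). CASP8 was above CFLAR in BHLHE22 replicates 1 and 3 (44.7 against 28.0 and 52.3 against 26.2 CPM). This pair was chosen after its values were seen, and the ratio was not tested. A single length per gene underlies FPKM, and long and short forms of FLIP cannot be told apart in gene counts.

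The members hold 3 IAP genes, whose proteins inhibit caspases or carry ubiquitin to RIPK1. Of these, BIRC3 rose, whereas BIRC2 and XIAP did not pass the test. BIRC3 (ENSG00000023445, chromosome 11, 102317450 to 102339403), the gene of cIAP2 and a known NF-kappaB target, had 79.9, 105 and 78.5 CPM in vector and 142, 147 and 132 CPM in BHLHE22 libraries. All 3 BHLHE22 libraries were above the vector libraries, a 1.60-fold rise (log2 fold change 0.68, SE 0.12, adjusted p = 0.00318, edgeR). BIRC2, the gene of cIAP1, lies 7807 bases from BIRC3 and had 28.2, 37.9 and 49.8 CPM against 35.0, 53.7 and 75.5. The groups of BIRC2 overlapped (log2 fold change 0.51, adjusted p = 0.241, edgeR). XIAP, the most direct inhibitor of caspases, had 27.8, 29.1 and 20.3 CPM against 24.9, 16.7 and 16.5 (log2 fold change -0.41, adjusted p = 0.132, edgeR). Without BHLHE22 replicate 1 the adjusted p of XIAP was 0.0294.

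The adaptors that couple death receptors to caspases changed by little. FADD, the bridge to CASP8, had 38.8, 34.6 and 40.0 CPM in vector and 48.8, 53.6 and 54.8 CPM in BHLHE22 libraries. Its groups were separate, with a 1.39-fold rise (log2 fold change 0.47, SE 0.10, adjusted p = 0.00606, edgeR). TRADD, the adaptor of TNF receptor 1, had 10.9, 9.04 and 10.4 CPM against 16.1, 12.8 and 14.3. The groups of TRADD did not overlap (log2 fold change 0.51, SE 0.14, adjusted p = 0.0168, edgeR), and its call ended without vector replicate 2 (adjusted p = 0.0503). RIPK1, a kinase that turns the same complex to survival or death, had 56.5, 56.8 and 49.7 CPM against 34.3, 40.5 and 49.2. The highest BHLHE22 library nearly met the lowest vector library (log2 fold change -0.39, SE 0.14, adjusted p = 0.0492, edgeR). The call of RIPK1 ended with unscaled library sizes (0.175) and without any 1 of 5 of the 6 libraries, all but BHLHE22 replicate 3 (adjusted p = 0.0536 to 0.132).

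Of the necroptosis pair, MLKL (ENSG00000168404, chromosome 16, 74671855 to 74700960), which breaches the plasma membrane, had 6.05, 5.78 and 7.96 CPM in vector and 12.3, 15.0 and 19.7 CPM in BHLHE22 libraries. The groups of MLKL did not overlap, with a 2.38-fold rise (log2 fold change 1.25, SE 0.21, adjusted p = 0.00242, edgeR). RIPK3, the kinase that activates MLKL, had 0 counts in all 6 libraries. A count of 0 over a group allows up to 3 counts, which is 0.0711 CPM for the vector group and 0.0690 CPM for the other, counting error only. ZBP1, an upstream sensor of necroptosis, was under the low-count filter too and not tested.

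**Figure D4:**
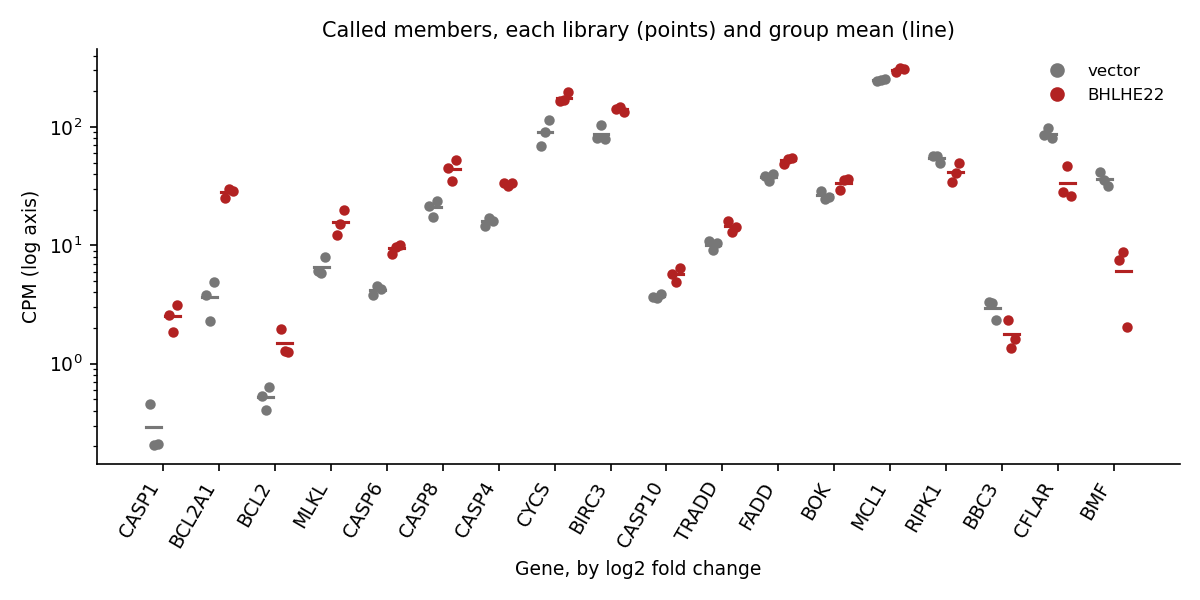
CPM on a log axis (y) of the 18 called members (x, ordered by log2 fold change), with a point per library and a line at the mean of 3 libraries per group. The vector and BHLHE22 values do not overlap for 17 of the 18 genes, but nearly meet for RIPK1 (49.7 and 49.2 CPM) and BOK (28.9 and 29.2 CPM). Those of BBC3 overlap, with 2.32 CPM in vector replicate 3 and 2.34 CPM in BHLHE22 replicate 1.

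Further genes of the pathway were taken from 3 lists with 82 genes in the table, of which 70 were tested. Of these 18 rose, 15 fell and 37 did not pass, 47.1% called against 49.4% of all genes. Among 25 relatives of the BCL2 family and mitochondrial death genes 4 rose and 7 fell (28.0%). Of all tested genes 25.1% were called higher and 24.3% lower. The share of falls in this list was thus near that of all genes, and its share of rises was below that of all genes. BNIPL fell from 5.99 ± 1.47 to 1.08 ± 0.01 CPM and BNIP2 from 110 ± 4 to 70.4 ± 3.1 CPM, while BCL2L12 and AIFM2, an oxidoreductase that protects lipids from peroxidation, rose by log2 fold changes of 0.68 and 0.52.

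Among 21 other caspases, IAPs and caspase scaffolds and substrates 8 rose (38.1%) and 5 fell (23.8%), against 25.1% and 24.3% of all tested genes. XAF1, an antagonist of XIAP, had 0, 2 and 0 counts in vector and 110, 104 and 64 in BHLHE22 libraries. BIRC5, the gene of survivin, an IAP with a role in mitosis, rose from 30.2 ± 5.7 to 68.4 ± 1.8 CPM. BIRC6, another IAP gene, fell from 316.8 ± 30.4 to 219.9 ± 13.9 CPM (adjusted p = 0.00314, edgeR). PEA15, whose death effector domain binds FADD and CASP8, rose from 27.7 ± 6.4 to 80.9 ± 7.2 CPM, and PARP1, a DNA repair enzyme that caspases cleave, rose by a log2 fold change of 0.89.

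Among 24 genes of the TNF receptor complex, necroptosis and pyroptosis 6 rose (25.0%) and 3 fell (12.5%), against 25.1% and 24.3% of all tested genes. TNFAIP3, which encodes the ubiquitin editor A20 that limits NF-kappaB signalling, rose from 15.95 ± 1.804 to 44.8 ± 1.5 CPM, with a log2 fold change of 1.49 (adjusted p = 0.000134, edgeR). RIPK2 and TRAF5 rose by 0.62 and 0.64, and the deubiquitinase gene OTULIN fell by 0.36 on the log2 scale.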

How the data were processed

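RNA of 6 PC-3 libraries was compared, 3 vector and 3 BHLHE22. Read counts per gene (58302 genes) and FPKM values come from 1 table deposited by the authors. Tools listed, without roles, per the submitters' processing notes are HISAT2 2.1.0, CASAVA 1.8, edgeR and StringTie 1.3.4b, and the builds GRCh38 and hg38. Which tool counted reads, and with which options, is not given in the sources used here. Deposited FPKM equalled count over a fixed gene length and library sum, within 0.1%, for 100% of 26866 genes. Positions matched GENCODE release 29 for 97.53% of 58039 shared genes. Strand and exon overlaps were taken from that release.

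Counts were filtered with filterByExpr, scaled by TMM and tested with edgeR 4.0.16 (R 4.3.3, quasi-likelihood, robust, 2-sided, group as sole term). Benjamini-Hochberg adjustment covered all 15945 genes. CPM uses TMM-scaled library sizes. SE is the absolute log2 fold change over the square root of F, and 95% intervals use the t quantile of the fit. Libraries of a group differed by more than sampling noise (chi-square per degree of freedom 11.7 to 24.8, between groups 75.6 to 153). The members, lists and tests were chosen with earlier results of these data known. All members are given, and from each further list the 4 called genes with the smallest p, with BIRC6 added as an IAP gene. In 3 simulated draws of the 15945 genes with 200 changed, 12.7% of 1.5-fold and 82.7% of 3-fold changes were called, and 10.3% of calls were false. In the real data 49.4% of the genes were called, so these simulated shares do not carry over to it. A planned protein-motif description was not run. The alternatives were a replicate block, other scalings, DESeq2 1.42.0, limma-voom (limma 3.58.1), other filters, a stricter threshold, a test against a 1.2-fold change, and leaving out each library.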

Additional observations from a re-analysis of the deposited data

How the results depend on the processing

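Of the 18 called members, 12 kept their direction and call under every one of 15 alternatives: BCL2A1, BCL2, BIRC3, CFLAR, BMF, CASP1, CASP4, CASP6, CASP8, CYCS, FADD and MLKL. The other 6 lost the call under at least 1 alternative (MCL1, BOK, BBC3, CASP10, TRADD and RIPK1), and 4 uncalled members gained one under 1 alternative (BIK, DIABLO, XIAP and BIRC2). Sign changes occurred for 8 members, all uncalled. Members called lower numbered 4, and 2 at an adjusted p under 0.01, with the replicate block, against a 1.2-fold change and with unscaled library sizes. Leaving out 1 library gave 2 to 4. Pro-death members called lower numbered 2, and 1 with DESeq2, without the low-count filter, with the replicate block, at an adjusted p under 0.01, against a 1.2-fold change and with unscaled library sizes (1 to 2 without 1 library). Pro-survival members called lower numbered 1 to 2 without 1 library. Of the further genes 15 were called lower, and 9 at an adjusted p under 0.01, 8 against a 1.2-fold change and 8 with unscaled library sizes. Over all genes 2480 higher and 2482 lower calls passed an adjusted p under 0.01, against 3996 and 3880. Where fewer calls followed from a stricter threshold or fewer libraries, that is the construction of the alternative, and for the rest the cause was not tested.

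Replicate numbers of the titles did not pair the libraries: deviations from the group means correlated at 0.00538, -0.0267 and 0.0105 for the same number, and the libraries did not each correlate best with their own number. The replicate block gave 3688 higher and 3604 lower calls over all genes. Among members it gave 14 rises and 2 falls, with BIRC2 gaining a call (adjusted p = 0.0144) and BOK (0.0939), BBC3 (0.0550) and RIPK1 (0.0735) losing theirs.

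Depth limits what can be said of HRK and RIPK3, with 8 and 0 counts in all.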
